A study of Labeotropheus fuelleborni x Mchenga conophoros and Petrotilapia nigra x Mchenga conophoros and Petrotilapia nigra x Aulonocara baenschi with 10 samples.

Results

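Genes that handle RNA and make protein were followed in the brains of F1 hybrid males of rock and sand cichlids from Lake Malawi. The set held 39 genes, among them ribosomal proteins, translation initiation factors, tRNA-charging enzymes, heterogeneous nuclear ribonucleoproteins (hnRNPs), splicing factors and other RNA-binding proteins. They were found by words such as RNA, splicing, ribosomal protein or translation initiation in the gene names of the study's own list of differentially expressed genes, of which 812 could be matched to the 32455 loci counted. These words matched 43 genes. Of these, 3 whose names hold RNA polymerase and cirbp were left out, and 0 were removed for having every social sand male above every social rock male. That list was itself drawn from social rock against social sand on these same fish. Levels in social rock and social sand males therefore describe how the genes were chosen. Fold changes and calls between these contexts, where given, describe the list in the same way and are not independent evidence.

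Whole brains of 10 adult males were taken during courtship, each male being the offspring of a rock-dwelling father and a sand-dwelling mother. In 4 dyads of brothers, 1 male courted over rock (social rock, n = 4) and his brother built bowers and courted over sand (social sand, n = 4), while 2 males kept without a rival courted over rock (lone, n = 2). Brood 1 was a cross of Maylandia zebra with Tramitichromis intermedius, brood 2 of Petrotilapia nigra with Aulonocara baenschi, brood 3 of Petrotilapia nigra with Mchenga conophoros, and brood 4 of Labeotropheus fuelleborni with Mchenga conophoros. Lone males came from the brood 4 cross and from Maylandia zebra with Mchenga conophoros (brood 5). Sample titles give the cross of a lone male but no brood, so his brood number here stands for his cross. The labels name no drug and no engineered allele for any group. Sample titles mark social rock males as DOM and social sand males as SUB, so this label and context cannot be told apart. The study writes that its results seemed not to match a model of dominant and subordinate males. By the study's account the social rock brother was the larger of the pair, so body size and context cannot be told apart. A whole brain mixes all its cell types, so that fewer cells of a type and less RNA per cell cannot be told apart.

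Protein synthesis starts when initiation factors bring the small ribosomal subunit, the initiator tRNA and the capped mRNA together. The large subunit then joins, and tRNAs loaded by aminoacyl-tRNA synthetases supply the amino acids. Before that, hnRNPs and splicing factors bind the nuclear transcript and guide the removal of introns by the spliceosome. In neurons some mRNAs are further carried into dendrites by RNA-binding proteins such as Staufen and are translated near synapses.

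Social sand libraries were the smaller ones, with 206320 to 335551 counts against 492489 to 694114 in social rock and 375132 and 457974 in lone males. Levels are given as CPM, a gene's share of all counts of the 7733 tested genes, on the usual CPM scale and after TMM scaling, which corrects for a few abundant genes taking up a library. They are compared between males and not between genes, since CPM ignores gene length. A count of 3 corresponded to 10.6 to 16.4 CPM in social sand, 5.06 to 6.52 CPM in social rock and 6.39 to 7.32 CPM in lone libraries. In broods 1, 2, 3 and 5 the most abundant locus took 10.3% to 16.7% of a library, but only 1.58%, 2.27% and 5.14% in the social rock, social sand and lone males of brood 4. Of 8 listed brain marker genes 6 carried names here, namely sncb, snap25, gria2, calm3, slc1a2 and mpz, and each had counts in all 10 males. Their summed level was 3870 to 8970 CPM in social rock, 1560 to 1990 CPM in social sand and 7330 to 7580 CPM in lone males, with 5 of the 6 called lower in social sand by the test described below, where 3.14% of all tested genes were. Names come from the study's list of genes that differed between these contexts, so the markers found were on that list already and their direction is no independent measurement. The summed marker level was lower in social sand, as was that of the RNA-handling genes, and its part in their differences was not tested.

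Nearly all the RNA-handling genes stood lower in social sand brains, and the lone males stood with social rock. Without LOC101474770, the exception described below, their summed level was 2665, 2106, 2491 and 4323 CPM in the social rock males of broods 1 to 4. In their social sand brothers it was 818.9, 969, 1062 and 789.8 CPM, and in lone males 3965 and 4123 CPM. All 4 social rock males lay above all 4 social sand males in 32 of the 39 genes, and the sand brother lay below the rock brother in every brood in 35 (27 of the 31 genes tested, where 18.3% of all tested genes did). No gene of the set had all social sand males on top, by the rule, where 4.4% of all tested genes did. Enough counts for a test were found for 31 of the 39 genes, and 25 of these 31 showed no overlap between the contexts, where 8.97% of all tested genes had social rock on top. The low-count filter asks for counts in as few males as the lone group holds. A gene could thus pass it through social rock and lone males alone, and the 31 are no sample of all 39. Their median log2 fold change of social sand over social rock was -1.73, against -0.07 for all tested genes. By role the median was -1.61 for 6 ribosomal protein genes, -1.62 for 7 initiation factors, -1.71 for 5 hnRNPs, -1.49 for 5 splicing genes and -2.29 for 5 other RNA genes.

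**Figure D1:**
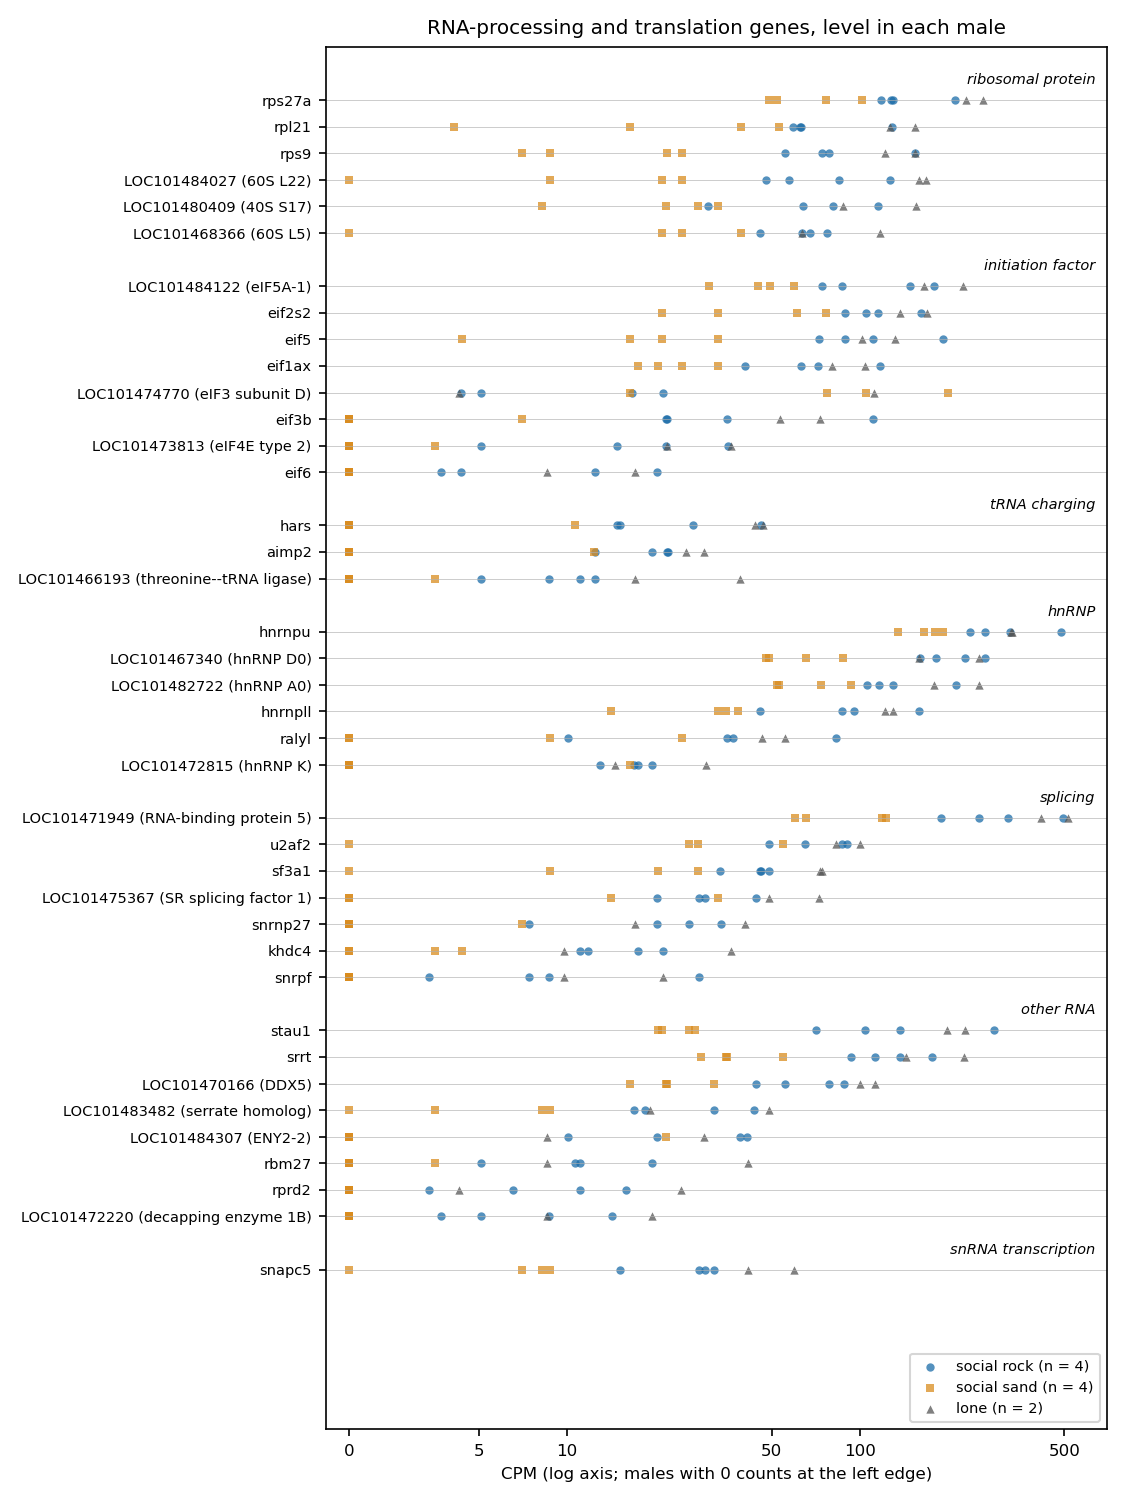
Level of each of the 39 genes in each of 10 males, grouped by role. The log axis gives CPM, with males at 0 counts on the left edge. Social sand squares lie left of social rock circles without overlap in 32 genes, while in LOC101474770 most lie to the right.

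For calls, edgeR's quasi-likelihood test was fitted to the 3 groups at once. A called gene had a fold of at least 2 and, after Benjamini-Hochberg adjustment across the 7733 genes, a p under 0.05. By this rule 10 of the 31 tested genes were called lower in social sand, where 3.14% of all tested genes were, and 1 was called higher, where 0.323% were. As these genes come from a list made on this contrast, the counts describe the list and are not evidence for it. With brood as a block, which pairs the brothers, 16 were called lower, where 5.7% of all tested genes were, and 1 higher, where 0.853% were. The part of the pairing in the added calls was not tested. The 10 genes were stau1, eif5, hnRNP D0, rps9, RNA-binding protein 5, srrt, eif3b, ribosomal protein L22, hnrnpll and eIF5A-1. Only stau1, eif5 and hnRNP D0 kept the call in each of the 10 edgeR fits that left out 1 library. By limma-voom, the method the study used, hnRNP D0 (LOC101467340) was the 1 gene of the 31 called lower (adjusted p = 0.0403). By the same fit stau1 (adjusted p = 0.0909) and eif5 (adjusted p = 0.0799) were not called. This departs from the study, whose list held all 31. The fit here used a later limma version and its own low-count filter, and was no repeat of the study's fit. In edgeR, leaving out social sand male 1 gave a count of 3 and leaving out social rock male 4 a count of 6, where males carry the number of their brood. It was 0 without all males of brood 1 or of brood 4, and 5 without those of brood 3.

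Social sand males, with the smallest libraries, also had the most genes without a count. Among the 39 genes, 13, 20, 7 and 15 had 0 counts in the social sand males of broods 1 to 4, and 0 had none in any social rock or lone male. After every library was thinned at random to 206320 counts, the genes at 0 were 13, 20, 8 and 15 in social sand, 1, 2, 0 and 1 in social rock, and 0 and 0 in the lone males. At equal depth the order of the contexts was the same. The genes were chosen on this contrast, so their zeros describe the list. Over all loci, without thinning, 11357 to 13199 had counts in social sand and 15483 to 16629 in social rock males. In the lone males 15827 and 15776 loci had counts. Within social sand, the smallest library (brood 2) had the most genes at 0 and the largest (brood 3) the fewest, with thinning as without. No social sand library was as large as any other library, so the part of library yield in the result was not tested.

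**Figure D2:**
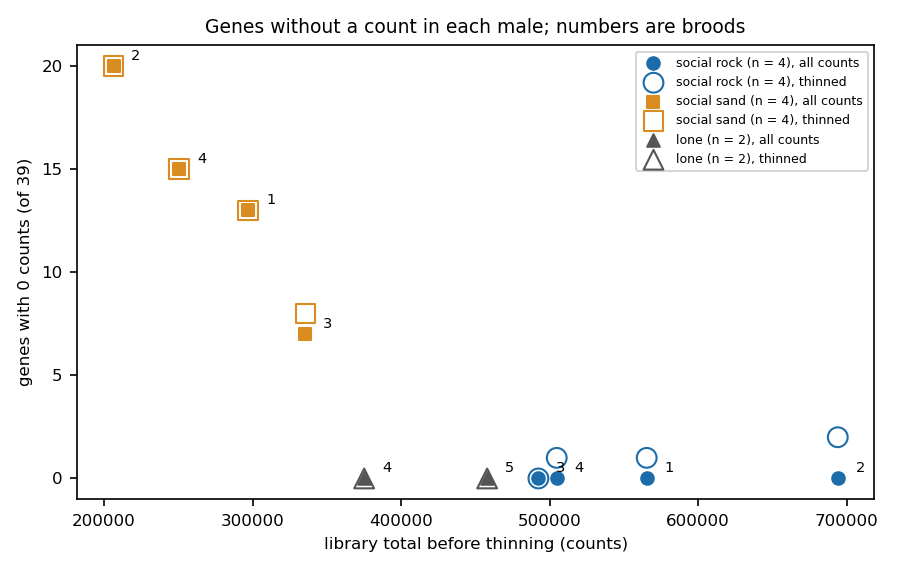
Number of the 39 genes with 0 counts in each male (vertical axis) against the total of its library in counts (horizontal axis). Filled symbols use all counts and open symbols use libraries thinned to 206320 counts, where social sand males have 8 to 20 genes at 0 and the others 0 to 2.

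All 6 ribosomal protein genes were lower in the social sand brother of every brood, where 18.3% of all tested genes were. As the genes were chosen on this contrast, such counts by role describe the list. Genes of this kind can have near-identical copies that share reads. This was not examined here, so each locus is uncertain. rps27a, which encodes a small-subunit protein fused to ubiquitin, stood at 118, 130, 128 and 212 CPM in the social rock males of broods 1 to 4. It was at 52.3, 76.6, 102 and 49.1 CPM in social sand males and at 264 and 230 CPM in the lone males of broods 4 and 5. The contexts did not overlap, and both lone males lay above every other male. The log2 fold change of social sand over social rock was -1.06 (standard error 0.33).

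Of the other small-subunit genes, rps9 was at 55.4, 74.3, 78.2 and 154 CPM in social rock and at 8.71, 21.9, 7.03 and 24.6 CPM in social sand males. Lone males had 122 and 155 CPM of rps9. Every social rock male thus had more than every social sand male, and the log2 fold change came to -2.56 (standard error 0.49). LOC101480409, the gene of 40S protein S17, overlapped because the social rock male of brood 3 had 30.4 CPM and the social sand male of brood 2 had 32.8 CPM.

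Large-subunit genes followed the same order. rpl21 was at 62.7, 59.1, 63 and 129 CPM in social rock males of broods 1 to 4 and at 39.2, 16.4, 52.8 and 4.09 CPM in social sand. In the lone males it was at 127 and 155 CPM. The groups did not overlap, although the brothers of brood 3 lay close together. LOC101484027, the gene of 60S protein L22, was at 84.9, 57.4, 47.8 and 127 CPM in social rock and 8.71, 0, 21.1 and 24.6 CPM in social sand. The lone males, at 159 and 168 CPM, were again the highest. Its log2 fold change of social sand over social rock was -2.44 (standard error 0.55), and its call did not hold when social rock male 1, social rock male 4 or social sand male 1 was left out. LOC101468366, the gene of 60S protein L5, lay between 45.6 and 77.5 CPM in social rock and between 0 and 39.2 CPM in social sand. Of the 6 ribosomal protein genes 2 were called lower, where 3.14% of all tested genes were. With brood as a block it was 4, where 5.7% of all tested genes were.

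Translation initiation factors held the exception among the 39 genes. In 7 of 8 the social sand brother was lower in every brood, where this held for 18.3% of all tested genes. eif5, the GTPase activator that acts when the start codon is found, was at 111, 72.6, 89 and 193 CPM in social rock and at 4.36, 32.8, 21.1 and 16.4 CPM in social sand. Lone males had 102 and 132 CPM, within the social rock range. Social sand lay wholly below both, and the log2 fold change over social rock was -2.65 (standard error 0.49). eif2s2, a subunit of the factor that brings the initiator tRNA, was at 162, 105, 89 and 115 CPM in social rock, 61, 76.6, 21.1 and 32.7 CPM in social sand, and 137 and 170 CPM in lone males. The contexts did not overlap, but the lowest social rock and the highest social sand male came close, and the gene was called with brood as a block but not without it.

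LOC101484122 encodes eIF5A-1, a factor that carries the modified lysine hypusine and helps ribosomes through difficult stretches. It was at 149, 74.3, 86.9 and 179 CPM in social rock, 30.5, 49.3, 59.8 and 45 CPM in social sand, and 166 and 226 CPM in lone males. Its log2 fold change of -1.40 (standard error 0.38) was called, yet the call was kept in only 2 of the 10 fits without 1 library. eif1ax, whose product helps the small subunit scan for the start codon, lay between 40.5 and 117 CPM in social rock and between 17.4 and 32.8 CPM in social sand. It was called with brood as a block (log2 fold change -1.55, standard error 0.51) but not without it.

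Another 3 initiation factors had at most 2 counts over all social sand brains. eif3b, a core subunit of the eIF3 complex that docks the small subunit to mRNA, was at 35.1, 21.9, 21.7 and 111 CPM in social rock and 73.2 and 53.2 CPM in lone males. Among social sand males only that of brood 3 had counts, 2 in all or 7.03 CPM. Over the pooled counts the level was 22.9-fold higher in social rock, with a 95% counting interval of 6.18 to 191. The call of eif3b did not hold when social rock male 4 or social sand male 1 was left out. LOC101473813, a cap-binding protein of the eIF4E family, had 1 count over the social sand males and was at 14.8, 5.06, 21.7 and 35.4 CPM in social rock, a pooled ratio of 17.9 (95% counting interval 3.03 to 722). eif6, which keeps the large subunit apart from the small one, had 23 counts over social rock and 0 over social sand males. With social sand set at a floor of 3 counts for all its males together, the pooled ratio for eif6 was 3.34. Such a ratio at the floor takes the social rock counts as exact and is no lower limit. Intervals cover counting error only, and neither they nor these ratios cover the spread between fish.

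LOC101474770, named eIF3 subunit D, went the opposite way. It was at 16.6, 5.06, 4.34 and 21.2 CPM in the social rock males of broods 1 to 4 and at 105, 16.4, 77.4 and 201 CPM in their social sand brothers. The sand brother was thus higher in each brood, while the ranges overlapped at the social sand male of brood 2. This overlap, of 16.4 CPM with the highest social rock value of 21.2 CPM, is why the gene was kept in the set. The lone males differed from each other, with 112 CPM in brood 4 and 4.26 CPM in brood 5. The log2 fold change of social sand over social rock was 3.05 (standard error 0.79). It was called, but 7 of the 10 fits without 1 library lost the call, namely those without any social rock male or without social sand male 1, 3 or 4. Over these 10 fits the log2 fold change ranged from 2.46 to 3.44. Both genes name subunits of a single complex, and eif3b and LOC101474770 differed in opposite directions between brothers in all 4 broods. This is a description of the rule's own contrast.

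**Figure D3:**
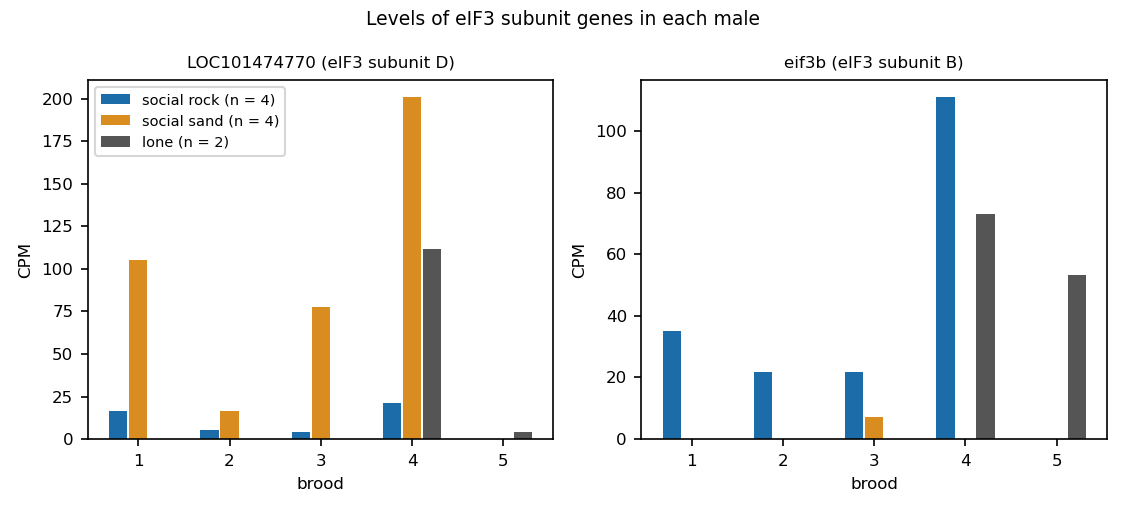
Level in CPM (vertical axis, from 0) of LOC101474770, named eIF3 subunit D, and of eif3b in each male, by brood (horizontal axis) and context (colour). LOC101474770 reaches 201 CPM in the social sand male of brood 4, and eif3b reaches 111 CPM in his social rock brother and 0 in him.

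The 3 genes of tRNA charging were hardly counted in social sand brains. hars, which loads tRNA with histidine, was at 14.8, 27, 15.2 and 46 CPM in social rock and at 43.9 and 46.8 CPM in lone males. In social sand it had 3 counts, all in the male of brood 3, and the pooled level was 8.28-fold higher in social rock (95% counting interval 2.69 to 41.3). aimp2, a scaffold protein of the multi-synthetase complex, was at 22.1, 21.9, 19.5 and 12.4 CPM in social rock and 29.3 and 25.5 CPM in lone males. Its 3 counts in social sand all came from the male of brood 4, whose 12.3 CPM nearly met the 12.4 CPM of his brother. The pooled ratio was 5.95 (95% counting interval 1.9 to 30.1). LOC101466193, the threonine--tRNA ligase, was untested, with 20 counts over social rock and 1 over social sand males, a ratio of 8.71 (95% counting interval 1.39 to 361). 0 of the 2 tested genes were called lower, where 3.14% of all tested genes were. With brood as a block it was 1, hars, where 5.7% of all tested genes were.

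hnRNPs coat nuclear transcripts. All 6 genes of this group were lower in the social sand brother of each brood, where 18.3% of all tested genes were. hnrnpu, a scaffold protein of nuclear RNA and chromatin, was at 268, 238, 326 and 486 CPM in social rock and at 166, 181, 193 and 135 CPM in social sand. Lone males had 329 and 332 CPM. No social sand male reached any social rock male. Yet the log2 fold change of -0.96 (standard error 0.28) and the adjusted p of 0.065 from edgeR both missed the thresholds for a call. LOC101467340, the gene of hnRNP D0, which binds AU-rich elements and influences mRNA decay, was at 229, 182, 161 and 269 CPM in social rock and at 47.9, 65.7, 87.9 and 49.1 CPM in social sand. It was at 159 and 255 CPM in lone males, level with social rock. The log2 fold change of social sand over social rock was -1.73 (standard error 0.33), and the call held in every edgeR fit without 1 library.

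LOC101482722, the gene of hnRNP A0, was at 116, 130, 106 and 214 CPM in social rock, 52.3, 93.1, 52.8 and 73.7 CPM in social sand, and 256 and 179 CPM in lone males. The contexts did not overlap, and the log2 fold change was -1.07 (standard error 0.34). ralyl, a relative of the RNA-binding protein RALY, varied more, with 35.1, 10.1, 36.9 and 83.1 CPM in social rock and 8.71, 0, 24.6 and 0 CPM in social sand males. Its contexts overlapped, as the social sand male of brood 3 had more than the social rock male of brood 2. hnrnpll, which regulates alternative splicing in mammalian lymphocytes, lay between 45.6 and 159 CPM in social rock and 14.1 and 38.3 CPM in social sand, and lost its call in 9 of 10 fits without 1 library. LOC101472815, the gene of hnRNP K, was untested, with counts in social sand only in the male of brood 4, at 16.4 CPM.

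Among splicing genes LOC101471949 was the 1 that was called lower, where 3.14% of all tested genes were. LOC101471949 encodes RNA-binding protein 5, a regulator of alternative splicing. Its level was 255, 189, 321 and 497 CPM in social rock, 65.3, 60.2, 123 and 119 CPM in social sand, and 517 and 417 CPM in lone males. Social sand lay wholly below the rest. The log2 fold change was -1.76 (standard error 0.35), and leaving out social sand male 1 ended its call.

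The core spliceosome genes were less clear. u2af2, which recognises the polypyrimidine tract before an intron's end, was at 86.7, 48.9, 65.2 and 90.2 CPM in social rock and at 26.1, 54.7, 28.1 and 0 CPM in social sand. Lone males had 83 and 100 CPM. In brood 2 the sand brother had the higher level, so the contexts overlapped. sf3a1, part of the U2 particle that binds the branch point, was at 33.2, 48.9, 45.6 and 46 CPM in social rock, 8.71, 0, 28.1 and 20.5 CPM in social sand, and 73.2 and 74.5 CPM in lone males. Here the contexts did not overlap and both lone males were the highest. LOC101475367, the SR protein splicing factor 1, was at 32.8 CPM in the social sand male of brood 2, above 3 of the social rock males, and at 0 in those of broods 1 and 4.

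Genes of small nuclear ribonucleoproteins had almost no counts in social sand. snrnp27, a component of the tri-snRNP, was at 7.38, 20.3, 26.1 and 33.6 CPM in social rock and 17.1 and 40.4 CPM in lone males. It had 2 counts in social sand, both in the male of brood 3, a pooled ratio of 10.2 (95% counting interval 2.68 to 87). snrpf, a core Sm ring protein, had 26 counts over social rock and 0 over social sand males. With social sand set at 3 counts, its pooled ratio was 3.78. khdc4 had 33 and 2 counts, a ratio of 7.19 (95% counting interval 1.84 to 61.8).

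Of the genes that act elsewhere on RNA, stau1 and srrt were called lower, where 3.14% of all tested genes were. stau1 encodes Staufen, which binds double-stranded RNA and takes part in carrying mRNA into dendrites. It was at 137, 70.9, 104 and 288 CPM in social rock and at 26.1, 27.4, 21.1 and 20.5 CPM in social sand males, with 229 and 198 CPM in lone males. The social sand males were close together and far below the rest, and the log2 fold change of -2.66 (standard error 0.45) was called in all 10 fits without 1 library. Each social sand value rests on 5 or 6 counts, so their closeness is no measure of a small spread between fish. srrt, which links the cap-binding complex to RNA processing, was at 137, 113, 93.4 and 177 CPM in social rock and at 34.8, 54.7, 35.2 and 28.6 CPM in social sand. With 144 and 228 CPM the lone males sat in or above the social rock range. Its log2 fold change was -1.78 (standard error 0.36), and its call, too, ended when social sand male 1 was left out.

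The second serrate gene, LOC101483482, was at 16.9 to 43.4 CPM in social rock and at 0 to 8.71 CPM in social sand, again without overlap, though the 2 copies may share reads. LOC101470166, the gene of the RNA helicase DDX5, was at 44.3, 55.7, 78.2 and 88.4 CPM in social rock, 21.8, 21.9, 31.7 and 16.4 CPM in social sand, and 100 and 113 CPM in lone males. Every lone male thus exceeded every social rock male, and every social rock male exceeded every social sand male. The log2 fold change of social sand over social rock was -1.51 (standard error 0.41). LOC101484307, the export factor ENY2-2, was at 10.1 to 41.3 CPM in social rock and was counted in the social sand male of brood 1 alone, where its 21.8 CPM topped his brother's 20.3 CPM.

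The remaining genes of this group were too sparse for a test. rprd2, whose product binds the tail of the transcribing polymerase, had 20 counts over social rock and 0 over social sand males, and LOC101472220, the mRNA-decapping enzyme 1B, had 17 and 0. With social sand set at 3 counts, their pooled ratios were 2.9 and 2.47. rbm27 had 24 counts and 1 count, a ratio of 10.5 (95% counting interval 1.7 to 430). snapc5, a subunit of the complex that starts transcription of small nuclear RNA genes, was tested. It was at 29.5, 15.2, 28.2 and 31.8 CPM in social rock, 8.71, 0, 7.03 and 8.18 CPM in social sand, and 41.5 and 59.6 CPM in lone males, which were highest.

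**Figure D4:**
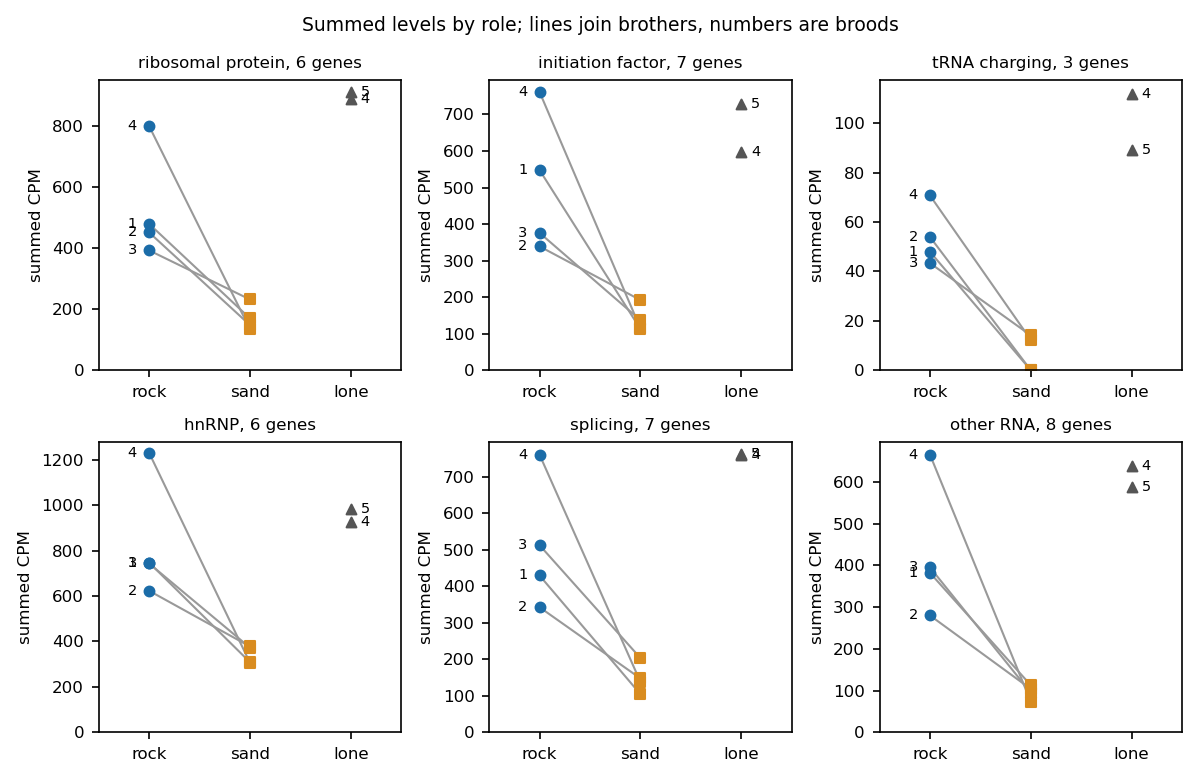
Summed CPM (vertical axis, from 0) of the genes of each role in social rock, social sand and lone males, with lines joining brothers and numbers giving the brood. LOC101474770 is left out of the initiation factors. Ribosomal protein genes reach 393 to 801 CPM in social rock, 135 to 232 CPM in social sand and 891 and 913 CPM in lone males.

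The next question was whether lone males differed from social rock males, which also courted over rock but had a rival. Of the lone males 1 came from the brood 4 cross and 1 from a cross without a social rock male. Cross and lack of a rival can therefore not be fully told apart. With 2 lone males, a gene that is not called is not shown to be alike. No gene of the set was called. edgeR called 0 of the 31 tested genes, where 0% of all tested genes were called. At an unadjusted p under 0.05 stood 1 of the 31, against 3.56% of all tested genes. This 1 gene was LOC101474770, with a log2 fold change of lone over social rock of 2.24 (standard error 0.90, adjusted p = 0.97 from edgeR). It rests on lone male 4, since the log2 fold change was -1.43 without that male and 3.20 without lone male 5. DESeq2 and limma-voom also called 0 of the 31, with 2 and 6 at an unadjusted p under 0.05. Of all 7733 tested genes 250 and 524 were at such a p by these methods.

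Lone males tended to sit at the top of the social rock range. The median log2 fold change of lone over social rock was 0.52 for the 31 tested genes and 0.05 for all 7733. Both lone males lay above all 4 social rock males in 7 of the 31 genes, where 7.31% of all tested genes did, and below them in 0, where 6.58% did. By edgeR rps27a had a log2 fold change of lone over social rock of 0.74 (standard error 0.36, adjusted p = 0.97). For ribosomal protein L22 it was 1.04 (standard error 0.51, adjusted p = 0.97 from edgeR), for eIF5A-1 0.68 (standard error 0.40, adjusted p = 0.97) and for hnRNP A0 0.61 (standard error 0.37, adjusted p = 0.97). The difference was small for eif5 (0.01, standard error 0.48), hnrnpu (0.01, standard error 0.33) and hnRNP D0 (-0.02, standard error 0.36). Leaving out social rock male 4, the median was 0.76 for the 31 genes and -7.94e-05 for all tested genes. In that edgeR fit 6 of the 31 had an unadjusted p under 0.05, with 0 called. Among all 7733 tested genes 901 had such a p in that fit, against 275 with all males. The number at such a p thus rose both in the set and over all tested genes, while the median rose in the set only. The comparison shares the social rock males with the rule that chose the genes, and the study's methods do not say whether lone males entered its list.

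**Figure D5:**
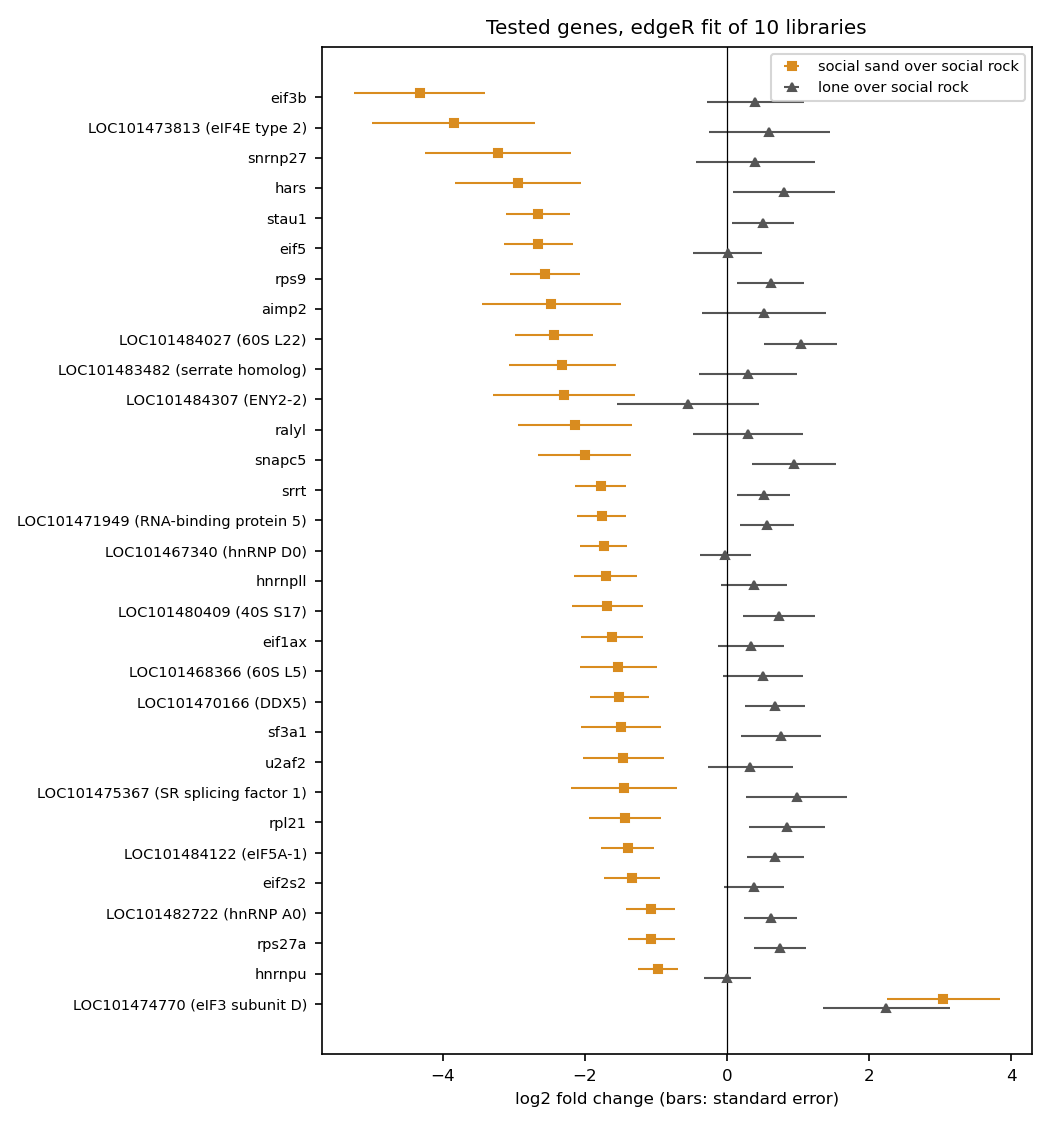
Log2 fold change (horizontal axis) with its standard error for the 31 tested genes, ordered by social sand over social rock (squares). Triangles give lone over social rock. Squares lie below 0 for 30 genes and at 3.05 for LOC101474770, while triangles lie from -0.55 to 2.24.

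Both lone males also lay above all 4 social sand males in 29 of the 31 tested genes, where 27.1% of all tested genes did, and in 36 of all 39. The exceptions were LOC101474770, LOC101484307 and LOC101472815. The sand males chose the genes, so this is a description.

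Each brood gave 1 male to each context, so differences between broods are balanced over the contrast that chose the genes. The study's methods name no brood term for that contrast, so genes with a small spread between broods could enter its list more easily. The brood test is thus not free of the choice of genes, and its shares beside those of all genes partly describe the list. With context in the model, an F test of edgeR over the 8 males of the dyads called 0 of the 31 tested genes between broods, where 2.78% of all tested genes were called. At an unadjusted p under 0.05 there was 1 of the 31, against 8.2% of all tested genes. The median F was 0.485 over the 31 genes and 0.699 over all tested genes. The 1 gene was again LOC101474770 (F = 4.27, adjusted p = 0.135), with its highest level in both contexts in brood 4. The next were ralyl (adjusted p = 0.737), RNA-binding protein 5 (adjusted p = 0.874), eif3b (adjusted p = 1) and stau1 (adjusted p = 1). Limma-voom and DESeq2 called 0 of the 31 as well, with 2 and 2 at an unadjusted p under 0.05. Of all 7733 tested genes 830 and 406 were at such a p by these methods. With 4 broods of 2 males a p that misses the threshold does not show that broods were alike.

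Within social rock, the male of brood 4 had the highest level of the 4 in 25 of the 31 tested genes, where he was highest in 40.2% of all tested genes. His social sand brother was not high in the same way, with the lowest summed level of the 4 social sand males when LOC101474770 is left out (789.8 CPM) and the second highest when it is included (990.4 CPM). This social rock male had 288 CPM of stau1 where the other 3 had 70.9 to 137, and 193 CPM of eif5 where they had 72.6 to 111. He was also the male with the smallest share of counts in the most abundant locus, 1.58%, and the largest TMM factor, 1.22. The part of these in the result was not tested. Without him the median log2 fold change of social sand over social rock was -1.59 over the 31 genes, and without all 3 males of the brood 4 cross it was -1.50.

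Other RNA-handling genes of the study's list, which the words above did not take or the rule set aside, were called in part. The list held 10 genes, 9 with enough counts to be tested, and social sand was called lower in 4 of them, where 3.14% of all tested genes were, and higher in 0, where 0.323% were. They include cirbp, a cold-inducible RNA-binding protein, at 469 to 1180 CPM in social rock and 78.4 to 176 CPM in social sand. The zinc finger splicing factor zranb2 was at 91.1 to 140 CPM and 0 to 16.4 CPM. LOC101471655, a polyadenylate-binding protein that coats mRNA tails, was at 87.8 to 262 CPM and 32.8 to 53.2 CPM, with 224 and 206 CPM in lone males. The termination factor etf1, at 11.8 to 35.1 CPM in social rock and 0 to 8.18 CPM in social sand, was not called. These genes come from the same list, so they too describe it. RNA-handling genes outside that list carry no names in the counts and were not analysed here.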

How the data were processed

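Brain mRNA libraries of 10 F1 males were made by the authors with a stranded kit. Reads with a mean quality below 20 were removed, the rest aligned to MZ_UMD2a with TopHat 2.0.9 and counted per locus with HTSeq 0.6.1. The submitters' processing notes also name SAMtools 0.19 and edgeR 3.6.8. The values deposited by the authors are raw counts for 32455 loci, with 206320 to 694114 counts per library. The sources used here give neither the strand setting nor the handling of multiple alignments. At this depth genes near 10 counts are imprecise.

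Low genes were removed by filterByExpr of edgeR 4.0.16 (R 4.3.3, minimum 10 counts), scaled by TMM and tested by its quasi-likelihood test with 3 groups in 1 fit. Standard errors were taken from the fold change and its F statistic. Broods were compared by an F test over the 8 dyad males with context as covariate. Limma 3.58.1, DESeq2 1.42.0, other scalings, no filter, thinning, brood as a block and leaving out each library or brood were alternatives, the last added after values were seen. Tests were also run on simulated counts, from which no result here draws support. Figures used matplotlib 3.10.9. Labels do not say that replicates beyond the brothers are independent in any other respect, so p-values refer to these fish only. edgeR draws each gene's spread towards one shared over tested genes, so its p-values do not measure a gene's own spread alone. In the brood test they rest almost wholly on the shared spread.

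Brothers share a brood by the series' description, which pairs them. Their deviations from the group means correlated at 0.126, 0.197, 0.0666 and 0.213 in broods 1 to 4.

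Gene names were taken from the study's supplementary list, of which no values were used. The counts carry gene numbers only, and no sequences or positions were used here. The genes, roles and lists were chosen with earlier results of these data known. Values in every male were given for the 3 genes (2 in small roles) with the highest mean CPM per role, the 5 with the smallest p for lone males and for broods. The 5 at each end of the log2 fold change were named too. Genes with at most 3 counts over social sand were given with a bound or a ratio. Of the lists, that of brain markers and that of other RNA-handling genes were used.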

Additional observations from a re-analysis of the deposited data

Results flagged for a closer look

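Among the 4 males of a context, single males stood far from the other 3 in 12 of 80 groups looked at, by the size of the gap relative to the range. The 80 include the summed level in each context. They also include 4 genes at 0 in all social sand males, where no male could stand apart. For values with a normal spread chance alone gives about 1 in 20, a rate that does not apply to the 9 groups in which the other 3 males were at 0, since any single count then sets the gap. In the remaining 3 the social rock male of brood 4 was high. He had 111 CPM of eif3b (the others 21.7 to 35.1), 129 CPM of rpl21 (59.1 to 63) and 212 CPM of rps27a (118 to 130). In those 9 a single social sand male had counts and his 3 peers had 0. The male of brood 3 had 7.03 CPM of eif3b, 10.6 of hars, 3.52 of LOC101473813 (eIF4E type 2), 7.03 of snrnp27, 3.52 of LOC101466193 (threonine--tRNA ligase) and 3.52 of rbm27. The male of brood 4 had 12.3 CPM of aimp2 and 16.4 of LOC101472815 (hnRNP K), and that of brood 1 had 21.8 of LOC101484307 (ENY2-2). These rest on few counts, and the male of brood 3 had the largest social sand library, with 335551 counts.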

How the results depend on the processing

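In social sand against social rock, 30 of the 31 tested genes stayed below 0 under each of the 21 alternatives, and LOC101474770 stayed above. The genes were chosen on this contrast in these same fish, so these stable signs describe the list and are no independent evidence. The count called lower, 10, was 21 without the low-count filter, 1 by limma-voom, 19 by DESeq2 and 16 with the replicate block, and 3 to 14 without 1 library (6 without social rock male 4, 3 without social sand male 1). Without all males of brood 1, 3 or 4, settings chosen after seeing the data, it was 0, 5 and 0. The number of all genes called between social sand and social rock, 268, came to 627 without the filter, 29 by limma-voom, 498 by DESeq2 and 507 with the block, 61 to 456 without 1 library (126 without social rock male 1, 93 without social rock male 4, 133 without social sand male 3), and 7, 71 and 31 without brood 1, 3 or 4. Scaling by total counts only moved the median of all genes from -0.07 to -0.24, and that of the 31 genes to -1.94. For lone against social rock 0 of the 31 genes were called under each alternative, 0 to 0 without 1 library, while all genes called between lone and social rock were 52 without the filter and 0 to 3 without 1 library. Between broods 0 of the 31 were called under each alternative, and the 215 of all genes called between broods were 119 by DESeq2, 71 without the context term and 140 to 190 without 1 library. The cause of these changes was not tested. The block was not run for lone males, as it leaves 1 lone male compared. It made hars, eif1ax, eif2s2, ralyl and the ribosomal proteins S17 and L5 called as well. With the block the standard error was larger for hars (0.99 against 0.89), eif1ax (0.51 against 0.44), eif2s2 (0.417 against 0.396) and S17 (0.516 against 0.500). For ralyl (0.75 against 0.80) and L5 (0.539 against 0.541) it was smaller, so a closer fit through pairing is not shown. Depth limits the genes with at most 3 counts over social sand, whose fitted fold changes depend on the fit's prior count.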
